A study of Homo sapiens with 8 samples.

Results

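The tubulin genes described here were 4 alpha isotypes (TUBA1A, TUBA1B, TUBA1C and TUBA4A) and 6 beta isotypes (TUBB, TUBB2A, TUBB2B, TUBB3, TUBB4B and TUBB6). They were the rows of the count table whose Ensembl identifier carries one of these symbols in GENCODE 44, 10 of the 58302 genes in the table. The cells were A549, an established line from a human lung adenocarcinoma, transfected with an siRNA against APEX1 (labelled siAPEX1) or with a scramble siRNA (labelled siCTRL) and collected 72 h later. Total RNA of 4 libraries per group was sequenced with a small RNA kit whose protocol had been changed to also capture miRNA precursors, to ask which RNAs respond to loss of APE1, the base excision repair endonuclease that APEX1 encodes. The study calls the 4 libraries of a group biological replicates, but the labels do not say whether they came from separate transfections, so p-values measure the spread between these libraries only.

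APEX1 itself, the targeted gene, had 51, 61, 64 and 47 counts in the libraries labelled siCTRL and 21150, 19470, 27916 and 20767 in those labelled siAPEX1. This goes against the label, and whether labels were exchanged or these reads came from the gene's own mRNA was not tested, so every direction given is that of the libraries labelled siAPEX1 against those labelled siCTRL. Total counts ran from 1639796 to 1949886 in the libraries labelled siCTRL and from 1348386 to 1619500 in those labelled siAPEX1, with no overlap, so group and library size cannot be told apart. The NRF2 programme that marks A549 cells was high in every library, with 7 genes summing to 1244 to 1375 CPM (counts per 1000000 counts of the library, its size adjusted by TMM factors) in siCTRL and 1332 to 1443 in siAPEX1. The 6 epithelial markers summed to 567 to 693 CPM in siCTRL and 221 to 287 in siAPEX1, with KRT8, KRT18, KRT19 and KRT7 lower and CDH1 higher in siAPEX1, and EPCAM at no more than 9 counts. Of 9 markers of blood, endothelial, stromal and liver cells, 7 never passed 3 counts, PECAM1 had 0 throughout, and the sum was 3.87 to 9.41 CPM in siCTRL and 2.38 to 4.94 in siAPEX1.

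Alpha and beta tubulin work as a pair: each microtubule subunit is a dimer of both, folded by the chaperonin CCT and by tubulin cofactors before it is added to a microtubule. Cells also adjust tubulin mRNA to the amount of free dimer, through the ribosome-binding factor TTC5, which reads the start of a growing tubulin chain and brings the CCR4-NOT deadenylase to the mRNA. The isotypes differ in where they are used: TUBA1B, TUBA1C, TUBB and TUBB4B are broadly expressed, whereas TUBA1A, TUBB2A, TUBB2B and TUBB3 are best known from neurons.

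The start of the coding sequence is shown for the 4 alpha genes and the 2 beta genes that were tested, because it is the stretch that this mechanism reads, and because it sets the classes apart. The first 30 coding bases, read 5′ to 3′ from the GENCODE 44 transcripts with the first 4 codons in capitals, were the same in TUBA1A, TUBA1B and TUBA1C.
TUBA1A, TUBA1B and TUBA1C: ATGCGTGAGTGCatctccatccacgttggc
TUBA4A: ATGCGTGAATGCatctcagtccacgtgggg
TUBB: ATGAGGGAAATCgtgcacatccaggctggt
TUBB4B: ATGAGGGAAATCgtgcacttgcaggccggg
The coding sequences were 84.44% to 97.2% identical between alpha genes (6 pairs) and 80.91% to 98.13% identical between beta genes (15 pairs), but only 52.92% to 55.61% identical between an alpha and a beta gene (24 pairs). In all 10 genes the canonical transcript has 4 exons. The first coding exon holds 3 coding bases in each alpha gene and 57 in each beta gene.

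Of the 4 alpha genes, 3 lie together on chromosome 12 of GRCh38: TUBA1B at chr12:49127782-49131397 and TUBA1A at chr12:49184686-49189080 on the minus strand, and TUBA1C at chr12:49188736-49274600 on the plus strand. TUBA4A lies at chr2:219249710-219277902 on the minus strand. TUBB2A (chr6:3153497-3157544) and TUBB2B (chr6:3223324-3231730) are neighbours on the minus strand, and TUBB lies on the same chromosome at chr6:30717435-30725538 on the plus strand. TUBB3 (chr16:89921392-89938761), TUBB4B (chr9:137241287-137243707) and TUBB6 (chr18:12307669-12344320) lie on the plus strand of other chromosomes.

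TUBA1A was lower in the libraries labelled siAPEX1. This alpha isotype, abundant in developing neurons, had 16.6, 13.6, 14.4 and 13.8 CPM in siCTRL replicates 1 to 4 and 9.88, 6.49, 6.49 and 6.35 CPM in siAPEX1 replicates 1 to 4. The groups did not overlap, and replicate 1 was the highest library of both. The mean level was 14.6 ± 1.38 CPM in siCTRL and 7.30 ± 1.72 in siAPEX1 (SD, n = 4), a log2 fold change of -0.998 (SE 0.25, 95% interval -1.50 to -0.50, edgeR quasi-likelihood test, adjusted p = 0.00162). In bulk samples, fewer cells of a state and less RNA per cell cannot be told apart. The counts behind it were 25 to 33 in siCTRL and 8 to 12 in siAPEX1.

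TUBA1C was also lower. This ubiquitous alpha isotype had 28.7, 21.8, 21.8 and 22.1 CPM in siCTRL and 14.8, 11.4, 13.7 and 15.1 CPM in siAPEX1, again with no overlap. Its mean was 23.6 ± 3.38 CPM in siCTRL and 13.7 ± 1.70 in siAPEX1 (SD, n = 4), 1.71-fold lower with a log2 fold change of -0.77 (SE 0.19, 95% interval -1.16 to -0.39, edgeR adjusted p = 0.00165). It had 40 to 57 counts per library in siCTRL and 14 to 19 in siAPEX1.

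TUBA4A, an alpha isotype known from platelets and muscle whose genomic place is apart from the others, was lower with a wider error. Its level was 13.1, 11.6, 9.73 and 9.96 CPM in siCTRL and 7.41, 4.06, 7.93 and 4.77 CPM in siAPEX1. The groups did not overlap, but the siAPEX1 libraries split into 2 near 4 to 5 CPM and 2 near 7 to 8 CPM. The log2 fold change was -0.86 (SE 0.28, 95% interval -1.43 to -0.29, 1.81-fold lower, edgeR adjusted p = 0.0163), from 18 to 26 counts in siCTRL and 5 to 11 in siAPEX1. The call was lost without siAPEX1 replicate 2 (log2 fold change -0.69, adjusted p = 0.0796), without siAPEX1 replicate 4 (-0.74, adjusted p = 0.0716) and in DESeq2 (-0.89, adjusted p = 0.167).

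TUBA1B, the alpha gene with the most counts, did not pass the test. It had 36.2, 32.9, 40.3 and 29.9 CPM in siCTRL and 20.6, 27.6, 34.6 and 33.4 CPM in siAPEX1. Replicates 1 and 2 of siAPEX1 were below all siCTRL libraries, and replicates 3 and 4 lay within their range. The log2 fold change was -0.26 (SE 0.16, 95% interval -0.57 to 0.06, edgeR adjusted p = 0.215), an interval that includes 0.

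**Figure D1:**
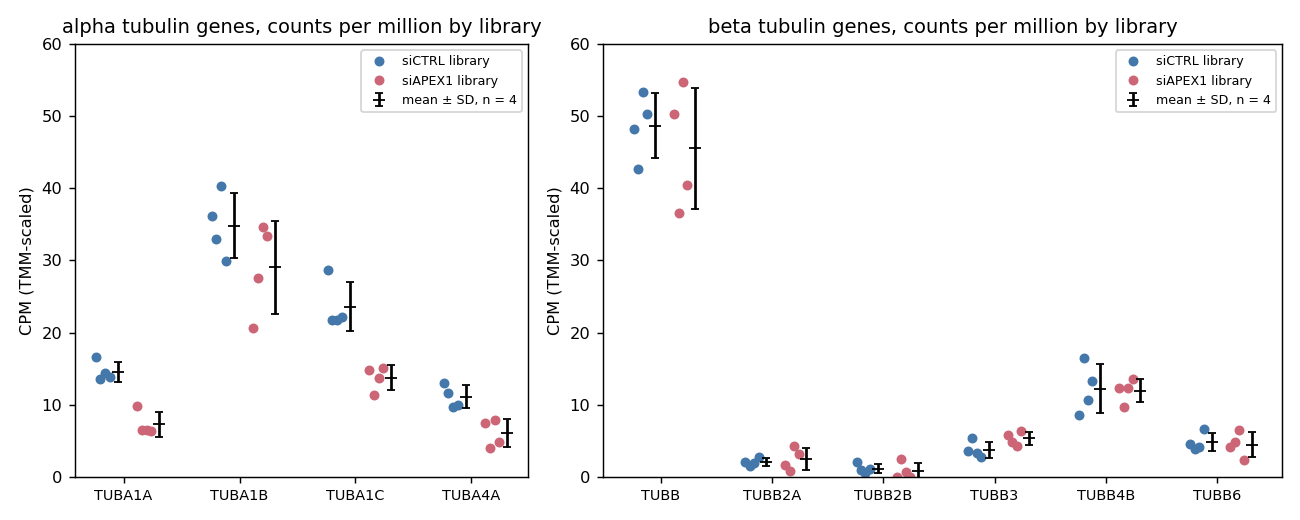
Level of each tubulin gene (y axis, CPM scaled with TMM factors) in each library, with the mean ± SD of 4 libraries beside the points; alpha genes on the left, beta genes on the right, siCTRL in blue and siAPEX1 in red. TUBA1A, TUBA1C and TUBA4A are separated between the groups (TUBA1A 13.6 to 16.6 against 6.35 to 9.88 CPM), whereas TUBA1B and all 6 beta genes overlap.

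Of the 6 beta genes, TUBB and TUBB4B passed the filter on low counts, and neither passed the test. TUBB, the main beta isotype of most dividing cells, had 48.3, 42.6, 53.3 and 50.4 CPM in siCTRL and 50.2, 36.5, 54.8 and 40.5 CPM in siAPEX1. The 2 groups overlapped, with the highest and the lowest library both labelled siAPEX1. Its log2 fold change was -0.09 (SE 0.13, 95% interval -0.36 to 0.18, edgeR adjusted p = 0.655). TUBB4B, a broadly expressed isotype that is abundant in cilia, had 8.55, 16.5, 10.7 and 13.3 CPM in siCTRL and 12.4, 9.74, 12.3 and 13.5 CPM in siAPEX1. All siAPEX1 values lay inside the siCTRL range, and the log2 fold change was -0.03 (SE 0.24, 95% interval -0.51 to 0.45, edgeR adjusted p = 0.942).

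The remaining 4 beta genes were too low for the test. TUBB3, the neuronal isotype often followed in lung tumours, had 7, 11, 7 and 5 counts in siCTRL and 7, 6, 6 and 8 in siAPEX1. This amounted to 3.71 ± 1.12 CPM in siCTRL and 5.33 ± 0.905 in siAPEX1 (SD, n = 4, two-sided exact permutation test, p = 0.0857). TUBB6, an isotype of many non-neuronal tissues, had 9, 8, 9 and 12 counts in siCTRL and 5, 6, 9 and 3 in siAPEX1 (4.80 ± 1.25 against 4.46 ± 1.70 CPM, exact permutation p = 0.857). TUBB2A had 4, 3, 4 and 5 counts in siCTRL and 2, 1, 6 and 4 in siAPEX1 (2.02 ± 0.550 against 2.49 ± 1.57 CPM, exact permutation p = 0.571). TUBB2B had 4, 2, 1 and 2 counts in siCTRL and 0, 3, 1 and 0 in siAPEX1, at or under 3 counts in all libraries but 1. The smallest p that 4 libraries against 4 allow is 0.0286, and these depths do not show a difference smaller than the spread given.

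In all, 6 of the 10 tubulin genes were tested: 4 of 4 alpha and 2 of 6 beta genes. Of these, 3 passed lower in siAPEX1, all of them alpha, beside 15.8% of the 5368 genes tested (15.9% of the 4870 protein-coding genes), and 0 passed higher, beside 15.9% of all genes tested. TUBA1A and TUBA4A entered the test only through siCTRL. In siAPEX1 they had 8 to 12 and 5 to 11 counts. With at least 10 counts required in every library, neither was tested and 1 tubulin gene, TUBA1C, passed lower, beside 19.4% of all genes tested. The libraries of the 2 groups did not overlap for 3 of 4 alpha genes, lower in siAPEX1, and for 0 of 6 beta genes, where 14.9% of all genes tested were separated in that direction. The study names 2 further thresholds on the absolute log2 fold change, 1 in its results and 0.75 in its methods. At 1, 0 tubulin genes were called lower, beside 5.68% of all genes tested, and TUBA1A (-0.998) lay just short of it. At 0.75, all 3 were called, and the share over all genes tested was not counted at that threshold. In DESeq2, the tool of the study, 2 passed lower, TUBA1A (-1.02, adjusted p = 0.0484) and TUBA1C (-0.80, adjusted p = 0.0432), of which TUBA1A was past 1. DESeq2 passed 5.84% of 7656 genes lower. The following ranks and medians are those of edgeR. TUBA1A, TUBA1C and TUBA4A stood lower than all but 5.72%, 9.67% and 7.97% of the genes tested, and TUBA1B, TUBB and TUBB4B lower than all but 31.0%, 43.4% and 48.0%. The median log2 fold change was -0.82 over the 4 alpha genes and -0.06 over the 2 beta genes tested, against -0.0035 over all genes tested. These counts and medians describe the members and are not a test of the classes.

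Another scaling changed how many passed but not the order. With library size only, the median of all genes tested was -0.34. On that scale the log2 fold changes were -1.34 for TUBA1A, -0.60 for TUBA1B (adjusted p = 0.00148), -1.12 for TUBA1C, -1.20 for TUBA4A, -0.43 for TUBB (adjusted p = 0.00805) and -0.37 for TUBB4B, so 5 of 6 passed lower. On the same scale, 36.2% of all genes tested passed lower. Of all genes that passed there, 85.1% were lower, against 49.7% with TMM factors. Relative to the median, the changes were -0.99, -0.26, -0.77, -0.85, -0.09 and -0.03 in the same order, close to those with TMM factors. Other factors shift the log2 fold changes of all genes by nearly the same amount. The unchanged order and these values are therefore not a separate check.

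**Figure D2:**
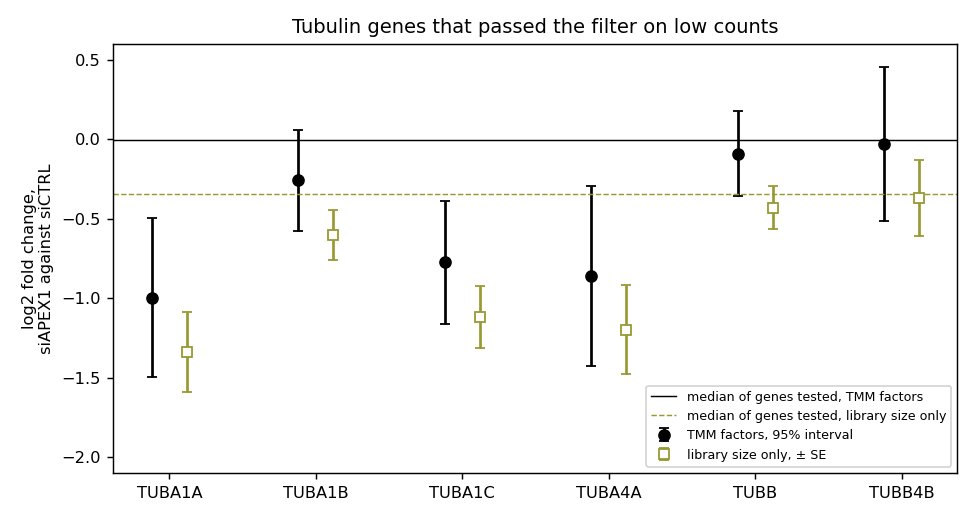
Log2 fold change of the 6 tubulin genes tested (y axis, siAPEX1 against siCTRL), with TMM factors (black, 95% interval) and with library size only (open squares, ± SE); horizontal lines give the median of all genes tested, -0.0035 and -0.34. TUBA1A, TUBA1C and TUBA4A lie well under the line of each scale, TUBB and TUBB4B close to it.

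A ratio of alpha to beta counts within a library does not depend on the scaling of libraries. The alpha genes summed to 169 ± 23.7 counts in siCTRL and 71.75 ± 11.8 in siAPEX1, and the beta genes to 145.25 ± 9.95 and 90.25 ± 17.9 counts (SD, n = 4). The ratio of alpha to beta counts was 1.37, 1.13, 1.17 and 0.986 in siCTRL replicates 1 to 4 and 0.711, 0.836, 0.757 and 0.904 in siAPEX1 replicates 1 to 4. Every siAPEX1 library was below every siCTRL library, with a narrow gap between siCTRL replicate 4 and siAPEX1 replicate 4. On the log2 scale the ratio was 0.21 ± 0.20 in siCTRL and -0.32 ± 0.15 in siAPEX1, a difference of -0.53 with a pooled SD of 0.18. Without TUBA1B and TUBB, the members with the most counts, it was -0.95 with a pooled SD of 0.30. That leaves only TUBA1A, TUBA1C and TUBA4A, the alpha genes that passed lower, so this larger difference is not a separate check. In scaled values the alpha sum was 84.1 ± 8.15 CPM in siCTRL and 56.1 ± 6.08 in siAPEX1, 33.3% lower, and the beta sum 72.6 ± 3.52 and 70.5 ± 10.2 CPM, 2.76% lower.

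Expressed as a share, alpha genes held 57.8%, 53.1%, 53.9% and 49.6% of the tubulin counts in siCTRL and 41.6%, 45.5%, 43.1% and 47.5% in siAPEX1. The exact (Clopper-Pearson) 95% intervals were wide at these depths and cover counting error only: 52.3% to 63.3% for siCTRL replicate 1, the highest, 43.6% to 55.7% for siCTRL replicate 4 and 33.7% to 49.8% for siAPEX1 replicate 1, the lowest. Intervals of neighbouring libraries from the 2 groups overlapped, so the separation rests on the order of the 8 libraries. The mean share was 53.6% ± 3.37 in siCTRL and 44.4% ± 2.62 in siAPEX1 (SD, n = 4), a difference of -9.21 percentage points.

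**Figure D3:**
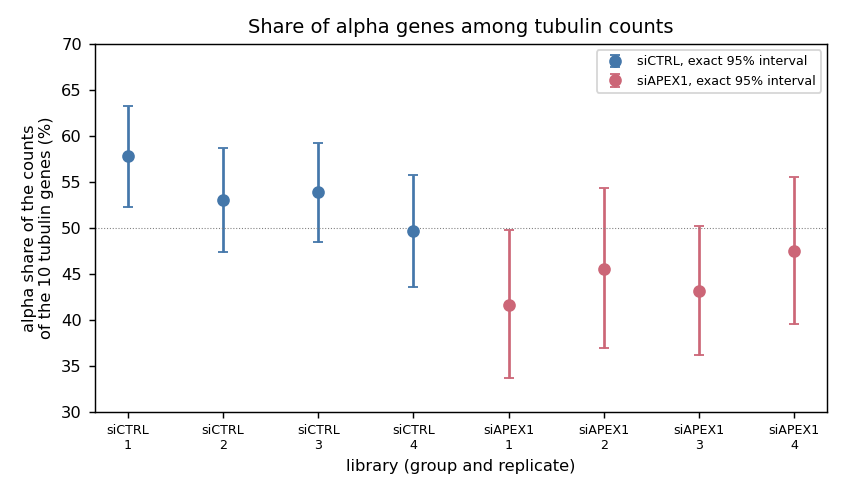
Share of the counts of the 10 tubulin genes that fell on alpha genes (y axis, percent) in each library (x axis, group and replicate), with exact 95% intervals; the dotted line marks equal alpha and beta counts, and the axis starts at 30%. The siCTRL libraries lie at 49.6% to 57.8% and the siAPEX1 libraries at 41.6% to 47.5%.

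Within each class, the share of every gene overlapped between the groups. TUBA1B held 38.3%, 41.2%, 46.8% and 39.4% of the alpha counts in siCTRL and 39.1%, 55.7%, 55.2% and 56.0% in siAPEX1. Replicates 2, 3 and 4 of siAPEX1 were above all siCTRL libraries, and replicate 1 was not. TUBA1A held 17.4% ± 0.697 in siCTRL and 13.2% ± 3.89 in siAPEX1, TUBA1C 28.0% ± 2.22 and 24.6% ± 2.79, and TUBA4A 13.2% ± 1.40 and 10.7% ± 3.09 (SD, n = 4). For TUBA1A, siAPEX1 replicates 2, 3 and 4 (13.1%, 10.3% and 10.7%) were below all siCTRL libraries, and replicate 1 (18.75%) was above them all. TUBB held most of the beta counts in both groups, 67.0% ± 5.34 and 64.2% ± 3.19, followed by TUBB4B with 16.9% ± 4.73 and 17.1% ± 2.41. TUBB6 held 6.59% ± 1.45 and 6.30% ± 2.14 and TUBB3 5.16% ± 1.70 and 7.71% ± 1.84. TUBB2A and TUBB2B stayed at or under 5.22% in every library.

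**Figure D4:**
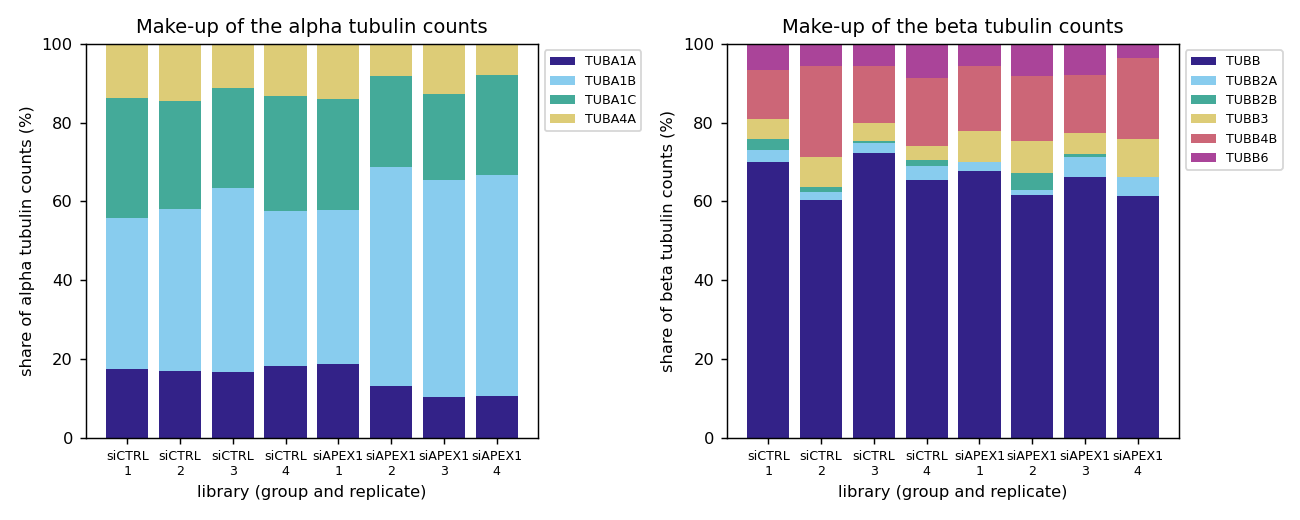
Share of each gene in the counts of its class (y axis, percent) for the alpha genes on the left and the beta genes on the right, stacked for each library (x axis). TUBA1B takes 38.3% to 46.8% of alpha counts in siCTRL and 39.1% to 56.0% in siAPEX1, and TUBB 60.3% to 72.3% and 61.4% to 67.8% of beta counts.

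Levels of different genes were compared per length, as CPM per kb of exon. This takes counts to scale with exon length, which was not tested for libraries of a small RNA kit. In siCTRL the order was TUBB (11.9 ± 1.11 CPM per kb), TUBA1B (9.75 ± 1.25), TUBB4B (6.01 ± 1.68), TUBA1C (5.30 ± 0.760), TUBA1A (3.82 ± 0.360), TUBA4A (3.001 ± 0.423), TUBB6 (1.22 ± 0.318), TUBB2A (0.695 ± 0.189), TUBB3 (0.501 ± 0.151) and TUBB2B (0.273 ± 0.155). The neighbours TUBB and TUBA1B, TUBB4B and TUBA1C, TUBB2A and TUBB3, and TUBB3 and TUBB2B had overlapping libraries, and the other neighbours did not. The 10 genes kept this order in siAPEX1, from TUBB at 11.2 ± 2.08 to TUBB2B at 0.190 ± 0.276 CPM per kb. There only TUBB4B (5.87 ± 0.779) and TUBA1C (3.09 ± 0.381) were neighbours without overlap. With the length of the longest transcript, 8 of the 10 genes kept their place and TUBA1C passed TUBB4B (8.36 against 6.01 CPM per kb in siCTRL).

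How the reads were counted bears on these levels. Only reads with 1 place in the genome were counted, and long stretches of tubulin transcripts also occur elsewhere in the genome, in other tubulin genes or outside them. Of all 30-base windows of the transcript of TUBA1A, 61.05% also occur elsewhere in the genome, and 69.5% of those of TUBA1B, 42.2% of TUBA1C, 43.5% of TUBB, 67.3% of TUBB2A, 55.5% of TUBB2B, 24.7% of TUBB4B, 22.8% of TUBB3, 7.51% of TUBB6 and 2.13% of TUBA4A. Windows that occur in the transcript of another of the 10 genes made up 58.55% for TUBA1A, 66.0% for TUBA1B and 34.25% for TUBA1C. They made up 63.1% for TUBB2A and 52.9% for TUBB2B, but 17.35% for TUBB3, 8.6% for TUBB4B and 6.81% for TUBB6. For TUBB and TUBA4A they were 0.6% and 0.15%. The level of a gene with many shared windows is therefore uncertain. The part of shared windows in the differences between the groups was not tested. TUBA1A and TUBA1C overlap over 345 bases of exon on opposite strands, TUBA1B shares 43.96% of its exon bases with the antisense gene TUBA1B-AS1, TUBA4A shares 17.0% with STK16, and TUBB6 shares 21.2% with AFG3L2, all on opposite strands. TUBB3 shares 1584 bases, 21.3% of its exon bases, with ENSG00000198211 on the same strand, a gene with 0 counts in every library, and reads that fall in exons of both are left out under any strand setting. The strand setting of the counting was not given in the sources used here. Of 49 rows for tubulin pseudogenes and antisense genes, 1 had any count, TUBA5P with 4 counts in all libraries against 1905 for the 10 genes.

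The promoters of TUBA1A and TUBA1C, which passed lower, and of TUBB, which did not, are shown as the 250 bases before the start in RefSeq (GRCh38.p14), read 5′ to 3′ along the gene. RefSeq gives 3 start windows for TUBA1C and 2 each for TUBB, TUBB3 and TUBB6. For each gene only the window nearest the start of the canonical GENCODE transcript was used. Capitals mark matches, on either strand, to CCAAT and to GGGCGG. The windows are chr12:49189081-49189330 on the minus strand, chr12:49264832-49265081 on the plus strand and chr6:30720102-30720351 on the plus strand.
TUBA1A: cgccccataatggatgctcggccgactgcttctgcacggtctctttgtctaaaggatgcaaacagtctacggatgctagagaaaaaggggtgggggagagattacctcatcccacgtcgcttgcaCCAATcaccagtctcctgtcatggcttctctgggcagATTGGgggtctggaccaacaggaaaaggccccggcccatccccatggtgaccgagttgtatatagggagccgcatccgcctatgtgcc
TUBA1C: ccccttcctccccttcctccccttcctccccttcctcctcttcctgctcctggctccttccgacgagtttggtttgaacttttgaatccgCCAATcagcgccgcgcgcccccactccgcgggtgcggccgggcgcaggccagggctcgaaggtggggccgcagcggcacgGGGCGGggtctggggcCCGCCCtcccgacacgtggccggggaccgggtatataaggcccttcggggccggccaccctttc
TUBB: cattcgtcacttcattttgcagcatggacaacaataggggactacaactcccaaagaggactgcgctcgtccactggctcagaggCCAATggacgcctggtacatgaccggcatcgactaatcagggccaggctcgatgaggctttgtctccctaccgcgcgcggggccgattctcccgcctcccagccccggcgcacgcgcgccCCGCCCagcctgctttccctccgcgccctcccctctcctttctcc
CCAAT was found before 2 of 4 alpha and 5 of 6 beta genes, and in 32.0% of 35116 promoter windows of the same length. GGGCGG, the core of a GC box, was found before 3 of 4 alpha and 5 of 6 beta genes (42.6% of all windows), and TATAAA before 0 of 4 and 1 of 6 (10.7% of all windows). TUBA1A held 2 matches to CCAAT and 0 to GGGCGG, TUBA1C 1 and 2, and TUBB 1 and 1. Only these exact letters were searched. Near matches to TATAAA, such as tatataa close to the end of the TUBA1C window, were not counted, so a count of 0 does not show that such an element is absent. A match describes letters and is not a binding site.

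Genes around the cluster on chromosome 12 were looked at after the values of its 3 tubulin genes had been seen. Of 62 other genes within 500000 bases, 10 were tested. Of these, 2 were lower in siAPEX1 (ARF3, a small GTPase, log2 fold change -0.67, and TMBIM6, -0.55) and 3 small nucleolar RNA genes were higher (SNORA2A, SNORA2B and SNORA2C, 0.72, 0.37 and 0.76). The median of the 10 was -0.01. Over all genes tested, 15.8% passed lower and 15.9% higher.

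Among genes that work on tubulin, changes went both ways, as over all genes tested, where 15.8% passed lower and 15.9% higher. Of 20 genes for tubulin folding, 18 were tested, 2 passed lower and 1 higher (median log2 fold change -0.11). CCT7, a subunit of the chaperonin that folds both tubulins, was at 44.1 ± 5.89 CPM in siCTRL and 23.5 ± 6.27 in siAPEX1 (log2 fold change -0.91, SE 0.16, edgeR adjusted p = 1.67e-05), while the other 7 subunits did not pass. TBCB, a cofactor that binds alpha tubulin, passed lower (-0.59, adjusted p = 0.0212), and TBCA, a cofactor that binds beta tubulin, passed higher (0.41, SE 0.11, adjusted p = 0.00301), from 98.8 ± 17.7 to 131 ± 10.7 CPM. Of 11 genes for the regulation of tubulin mRNA, 7 were tested (median 0.06) and 2 passed, both higher: CNOT2 (0.58, adjusted p = 0.0189) and CNOT6 (0.74, adjusted p = 0.0244), parts of the deadenylase complex. TTC5 itself was too low for the test, at no more than 8 counts in a library.

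For the microtubule itself, 12 of 20 stabilising and end-binding genes were tested (median 0.25), of which 3 passed lower and 3 higher. The shares over all genes tested were 15.8% lower and 15.9% higher. MAP1B, a large microtubule-associated protein, was at 129 ± 10.9 CPM in siCTRL and 66.2 ± 7.31 in siAPEX1 (log2 fold change -0.96, edgeR adjusted p = 2.49e-09), and MAP7D1 passed lower as well (-0.80, adjusted p = 0.0188). MAP4, which stabilises microtubules in most cells, passed higher (0.57, adjusted p = 0.00216). The others, named after their values were seen, were MAP2 (-0.96), CLASP1 (0.91) and CKAP5 (0.49). MAP2 and MAP7D1 entered the test only through siCTRL, with siAPEX1 libraries down to 2.88 and 4.12 CPM. In the gamma-tubulin ring complex, which nucleates microtubules, 4 of 12 genes were tested (median -0.26), with NEDD1 higher (1.24, adjusted p = 0.00242) and MZT2A lower (-0.86, adjusted p = 0.0326). NEDD1 entered the test only through siAPEX1 (1.45 to 6.03 CPM in siCTRL) and MZT2A only through siCTRL (3.60 to 5.68 CPM in siAPEX1). Of 13 destabilising and severing genes 2 were tested (median 0.22) and 0 passed, and of 15 tubulin-modifying genes and 12 other tubulins 0 were tested.

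Of 31 genes of microtubule motors (kinesins and dynein) and their partner proteins, 24 were tested, 5 passed lower and 0 higher (median -0.16). Beside them, 15.8% of all genes tested passed lower and 15.9% higher. Among the genes of this list too low for the test, means went both ways. KIF11, KIF23, KLC2 and KLC4 had the higher mean CPM in siAPEX1, and KIF20A, DCTN3 and DCTN4 the lower. KIF1C, a kinesin of vesicle transport, was at 15.6 ± 1.44 CPM in siCTRL and 5.09 ± 2.04 in siAPEX1 (log2 fold change -1.60, SE 0.27, edgeR adjusted p = 9.77e-06). DYNC1H1, the heavy chain of cytoplasmic dynein (-0.54, adjusted p = 0.00109), KIF5B, the heavy chain of conventional kinesin (-0.45, adjusted p = 0.00383), KIF13B (-1.10, adjusted p = 0.00439) and ACTR1A, the filament subunit of dynactin (-1.05, adjusted p = 0.0103), were the others. KIF1C, KIF13B and ACTR1A entered the test only through siCTRL. Their lowest siAPEX1 libraries were at 3.25, 3.29 and 2.38 CPM, so passing the filter already favoured a lower value in siAPEX1. Across these lists 67 genes were tested, of which 11 passed lower (16.4%) and 7 higher (10.4%), beside 15.8% and 15.9% of all genes tested. The counts were 23 lower and 1 higher with library size only and 5 lower and 1 higher in DESeq2, and 7 were lower without siAPEX1 replicate 4. With library size only, 36.2% of all genes tested passed lower (1945, against 340 higher), and in DESeq2 5.84% (447, against 455 higher). Without siAPEX1 replicate 4, it was 12.5% (742, against 793 higher).

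**Figure D5:**
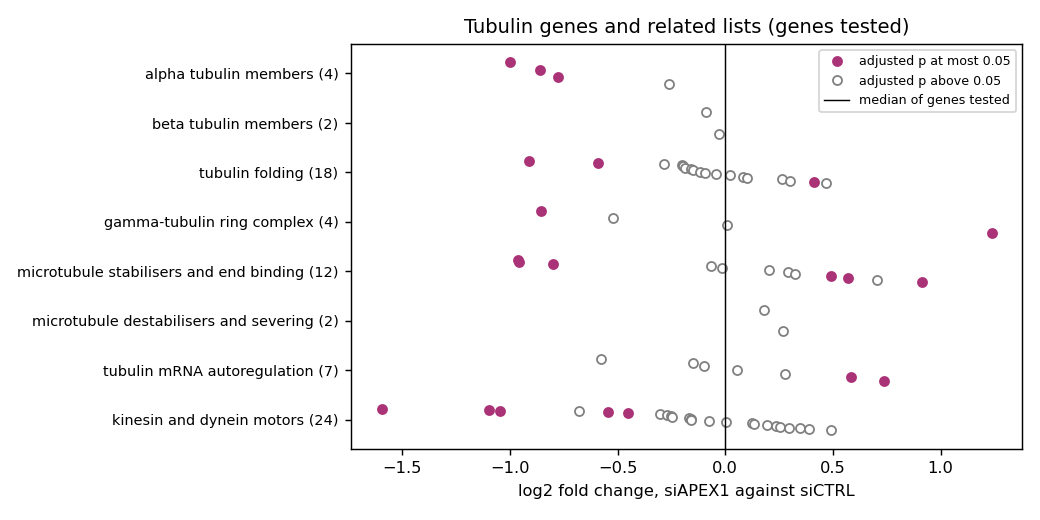
Log2 fold change (x axis, siAPEX1 against siCTRL) of each tested gene in the tubulin classes and the related lists (y axis, number tested in brackets); filled points passed the test, the vertical line is the median of all genes tested. Of the alpha genes, 3 lie between -0.998 and -0.77 and both beta genes near 0. The 5 genes of the kinesin and dynein list that passed lie from -1.60 to -0.45.

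The genes whose log2 CPM followed TUBA1B and TUBB most closely over the 8 libraries were listed as a description, without a test, since each was the highest of 5368. For TUBA1B they were MIR22HG (Pearson's r 0.960, Spearman's rho 0.929), MAP3K12 (0.957 and 0.857) and RELB (0.936 and 0.786). For TUBB they were F2RL1 (0.938 and 0.905), ZNF664 (0.935 and 0.929) and IMMT (0.934 and 0.881). All points share the 2 groups and the library sizes.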

How the data were processed

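RNA of 8 A549 libraries was sequenced, 4 labelled siCTRL and 4 labelled siAPEX1. The authors removed adapters with cutadapt, aligned reads to GRCh38 with STAR 2.5.3a and counted them per Ensembl gene (release and strand setting not given in the sources used here). The deposited values are raw counts, and all 8 count columns were used. The column of siCTRL replicate 3 was matched on cell line, group and replicate, since its leading number (N3) differs from that of the sample title (N2). Counts were tested with edgeR 4.0.16 in R 4.3.3 (TMM factors, quasi-likelihood test, Benjamini-Hochberg over all 5368 genes kept by filterByExpr, minimum count 10, minimum total 15), with the group as the only term. A gene passed at an adjusted p of at most 0.05. The standard error is the log2 fold change divided by the square root of F. CPM are scaled with TMM factors, and log2 CPM used a prior count of 2. Single values were compared by two-sided exact permutation over 70 labelings. The study used DESeq2, run here (1.42.0) as an alternative. Other alternatives were other scalings and filters, a fold change threshold of 0.75, a replicate block, APEX1 left out, and each library left out.

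The members and lists were chosen with earlier results of these data known. The named genes were the 10 members, their pseudogenes and antisense genes, per related list the 3 genes that passed with the lowest p and any that passed with a log2 fold change of 1 or more in either direction, and the 3 genes most like TUBA1B and TUBB. Genes that overlap a member, genes near the chromosome 12 cluster, MAP2, CLASP1 and CKAP5, and motor genes too low for the test were named in addition, after values were seen. 57532 genes had a GENCODE 44 symbol. One folding gene, TBCE, was not matched. The kept genes held 97.5% to 98.1% of the counts, and the common biological coefficient of variation was 0.0832. Programs were tested on simulated data. No 2 libraries of a group agreed within sampling noise (chi-square over degrees of freedom 1.94 to 3.91).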

Additional observations from a re-analysis of the deposited data

Results flagged for a closer look

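Of 22 groups of 4 libraries examined, 2 had a library that stood apart from the other 3, where chance sets apart about 1 in 20 groups. TUBA1C was at 28.7 CPM in siCTRL replicate 1, against 22.1 CPM in the next library and 21.8 in the lowest, and without that library its log2 fold change was -0.67 (edgeR adjusted p = 0.00942). TUBA1A was at 9.88 CPM in siAPEX1 replicate 1, against 6.49 CPM in the next library and 6.35 in the lowest, and without that library its log2 fold change was -1.14 (adjusted p = 0.00165).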

How the results depend on the processing

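TUBA1A and TUBA1C passed lower in every alternative that tested them, 16 and 17, with log2 fold changes from -1.34 to -0.91 and from -1.12 to -0.67 and the highest adjusted p in DESeq2 (0.0484 and 0.0432). TUBA4A was lower in all 16 and passed in 13. The number of tubulin genes lower was 3, and 5 with library size only, 2 in DESeq2 and 1 when each library had to hold 10 or more counts of a gene, where TUBA1A and TUBA4A were not tested. The shares of all genes tested that passed lower were 15.8%, 36.2%, 5.84% and 19.4% in the same order. Leaving out each library gave 2 to 3. The number lower with a log2 fold change of at most -1 was 0, and 1 with upper-quartile factors, DESeq2 or all genes with at least 1 count, 3 with library size only and 3 with the threshold of 0.75. Leaving out each library gave 0 to 1. TUBB ran from -0.17 to 0.024 when each library was left out, turning positive without siAPEX1 replicate 2. TUBB4B ran from -0.17 to 0.15, turning positive without siCTRL replicate 2, siCTRL replicate 4 (0.011) or siAPEX1 replicate 2 (0.078), and was 0.0076 with TMM factors from protein-coding genes. None of these passed. The log2 ratio of alpha to beta counts differed by -0.53, and by -0.61 to -0.45 when each library was left out. Without the gene with the most counts in each class it differed by -0.95, where only the alpha genes that had passed lower remained. Of the related genes, 11 were lower and 7 higher, 23 and 1 with library size only and 5 and 1 in DESeq2. Leaving out each library gave 7 to 12 lower and 5 to 8 higher, with 7 lower without siAPEX1 replicate 4. Over all genes 847 passed lower and 856 higher, 1945 and 340 with library size only, and DESeq2 passed 902 genes against 1703. The cause of these changes was not tested.

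Deviations of libraries with the same replicate number had correlations of -0.037 to -0.0035 (4 pairs), against -0.040 to 0.036 for different numbers (12 pairs). Both kinds of pairs lay near 0 and the labels state no pairing, so whether the numbers pair the samples was not settled. With a replicate block 3 tubulin genes were lower and 0 higher, 0 lower at -1, and the related genes gave 10 lower and 7 higher. It passed 1595 genes in all, against 1703 without. Depth limited the 4 beta genes that were too low for the test, and counting intervals cover counting error only.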
